A study of Mus musculus with 6 samples.

Results

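The genes described here are 37 listed members of the Fgf pathway, namely ligands, receptors, receptor partners, feedback inhibitors and Ets transcription factors, taken by name and without the isthmic ligands Fgf8 and Fgf17. Of these, 36 were found by Ensembl identifier among the 26852 genes of the deposited table, and Spry3 was not analysed here. Midbrains had been dissected from C57Bl/6 embryos (C57BL/6J in the methods of the study) at E14.5 and sequenced as 3 libraries of Lmx1b fl/fl;Pitx3-Cre embryos (conditional knock-out, cKO) and 3 libraries of Lmx1b wt/wt;Pitx3-Cre embryos (control), with the RNA of 6 embryos pooled into the 3 libraries of each group. Cre is expressed from the Pitx3 locus, so that Lmx1b, a Lim homeobox transcription factor, is deleted in Pitx3 positive dopamine neurons and kept in the other cells of the midbrain, and the Cre allele takes the place of a copy of Pitx3 in the controls as well. Whole read counts of each library were recovered from the deposited group means, and a normalized count is such a count divided by the size factor of its library.

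Fgf ligands are secreted proteins that bind receptor tyrosine kinases on nearby cells together with heparan sulfate. The activated receptor phosphorylates the docking protein Frs2, which switches on Ras and the MAP kinase cascade and leads to transcription of the Ets factors Etv1, Etv4 and Etv5. The same signal induces its own inhibitors, among them the Sprouty (Spry) and Spred proteins, the phosphatase Dusp6 and the membrane protein Il17rd (Sef), and these genes are widely used as a readout of Fgf signalling. In the early midbrain, the isthmic organizer at the border with the hindbrain is the best known source of Fgf ligands.

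Between 20782935 and 25240920 recovered reads per library lay on genes. Genes with recovered counts held 70.0% of the gene counts, as the most abundant genes were not recovered. Lmx1b had 1257, 1401 and 1455 normalized counts in cKO replicates a to c against 1368, 1352 and 1474 in control replicates a to c. Its total level therefore cannot serve as a check of the genotypes, and directions are given for the libraries as labelled. Replicate letters follow the size factors and carry no sample number. All 10 dopamine neuron markers were detected, and 9 of them had a negative log2 fold change. Pitx3 (-0.41, unadjusted p = 0.0407) and Ddc (-0.24, unadjusted p = 0.0355) had an unadjusted p-value under 0.05, and for Pitx3, Ddc and Nr4a2 the cKO libraries were all below the controls. The part of these neurons in the values of the Fgf pathway genes was not tested. One library stood apart: 13 bone and mesenchyme genes summed to 14763 normalized counts in cKO replicate c and 2599.9 in cKO replicate a, against 979 to 1104 in the other 4. The libraries also differed in genes of the Y chromosome: Kdm5d had 861 normalized counts in control replicate a, 1261 to 1694 in the cKO libraries and 2585 and 2841 in control replicates b and c, and Uty, Ddx3y and Eif2s3y were lowest in control replicate a as well. The part of the sex of the pooled embryos in the values below was not tested. In bulk tissue, fewer cells of a type and less RNA per cell cannot be told apart.

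Of the 36 genes, 35 reached a mean normalized count of 10 and were tested with limma as part of a fit over 16697 genes with recovered counts. None of the 35 had an adjusted p-value under 0.05 and neither did any other gene tested (0.0% of genes, lowest adjusted p = 1.00), while 467 genes (2.8%) had an unadjusted p-value under 0.05. Etv4, Etv5 and Il17rd were the 3 members with such an unadjusted p-value (8.57% of 35), all of them lower in the cKO. Over all genes, 1.61% were lower and 1.19% higher with such a p-value. Fgf3, Etv4, Spry2 and Spry4 were the 4 members whose cKO and control libraries did not overlap (11.4%, against 7.65% of all genes). These 4 were also lower in the cKO, as were 3.79% of all genes, with 3.87% higher. The smallest two-sided p that an exact permutation test of 3 libraries against 3 can give is 0.1. Groups without overlap always give this value, so it adds nothing for these 4. The shares rest on 3 and 4 genes and were not tested against those of all genes. The log2 fold change was below 0 for 24 members and above 0 for 11, with a median of -0.063. It was below 0 for 8355 of the 16697 genes, with a median of -0.000048. With 1 library left out, the median of the members ran from -0.14 (without cKO replicate c) to -0.034 (without control replicate c).

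Levels were compared between members as normalized counts per kb of exon, averaged over the 6 libraries. Fgf13, a Fgf homologous factor that stays inside the cell and binds sodium channels, had the highest level of all members (887 per kb). Among the receptors, Fgfr3 (316 per kb) and Fgfr1 (281 per kb) were the most abundant and overlapped between libraries. Fgfr2 (91.9 per kb) and Fgfrl1 (80.0 per kb), a receptor without a kinase domain, came next and overlapped as well, and Fgfr4 (3.82 per kb) was lowest. The docking proteins Frs3 (322 per kb) and Frs2 (297 per kb) and the receptor partners Flrt3 (344 per kb) and Flrt2 (290.4 per kb) lay near the main receptors, with Flrt1 below them (118 per kb). Feedback inhibitors spanned a wide range, from Spred1 (434 per kb) to Spry4 (39.7 per kb), and the Ets factors followed the order Etv5 (124 per kb), Etv4 (53.7 per kb) and Etv1 (24.9 per kb).

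Fgf15 (91.1 per kb), Fgf9 (84.8 per kb) and Fgf18 (75.7 per kb) were the most abundant secreted ligands and overlapped between libraries. The mean of Fgf15 was close to that of Fgfr2. It was above it in the controls (112 against 91.6 per kb) and below it in the cKO (69.7 against 92.1 per kb). The means of the other secreted ligands were below that of Fgfr2. Fgf3 reached 46.4 per kb through 1 library, and Fgf20, a ligand known for its action on dopamine neurons, had 43.2 per kb. Fgf7, Fgf5, Fgf10, Fgf2 and Fgf1 lay between 2.15 and 15.6 per kb. Fgf16 had 1 read in cKO replicate a and none in the other libraries, so no fold change is given. Exons of Fgfr2 overlap those of Ctbp2 on the same strand, those of Fgf2 and Frs3 overlap a further gene on the same strand, and those of Fgfr1, Fgfr3, Fgf2, Fgf10, Fgf14, Fgf15, Fgf20, Frs3, Spry1 and Spred3 overlap a gene on the opposite strand, so the levels of these genes are less certain.

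**Figure D1:**
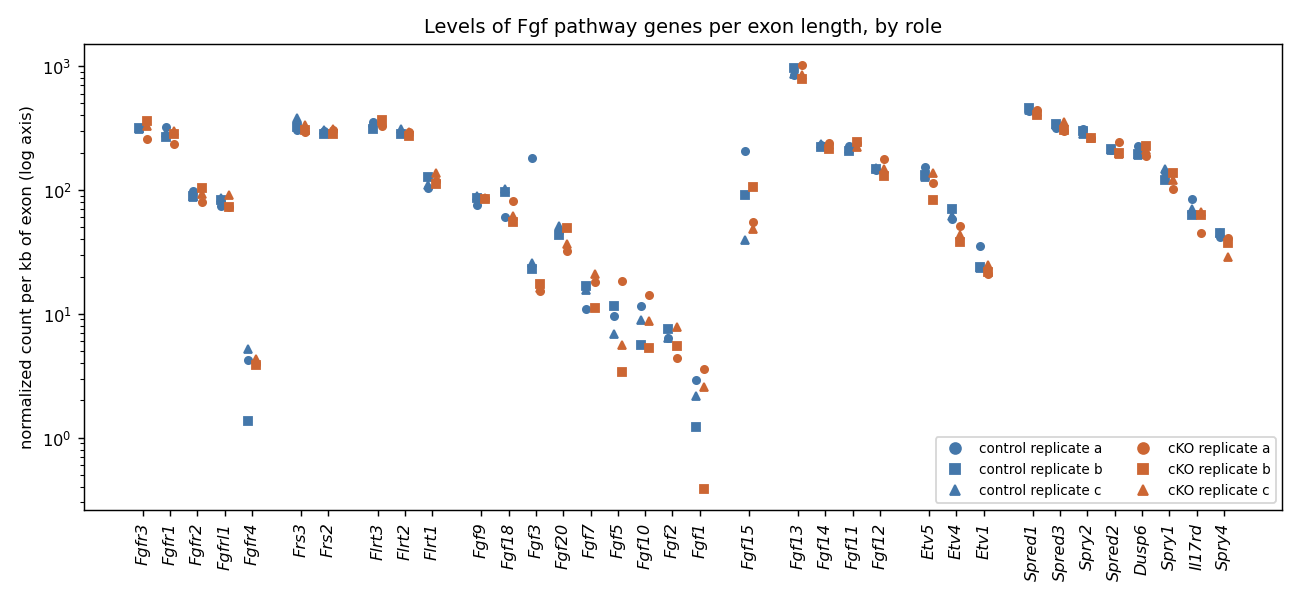
Normalized count per kb of exon (log axis) of the 35 tested Fgf pathway genes, grouped by role, with 1 point per library (blue control, orange cKO, shapes for replicates). Fgf13 is highest at a mean of 887 per kb and Fgf1 (2.15 per kb) is lowest. The mean of Fgf15 (91.1 per kb) is close to that of Fgfr2 (91.9 per kb) and is above it in the controls (112 against 91.6 per kb). The means of the other secreted ligands are below that of Fgfr2.

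Among the secreted ligands, the largest fold changes were those of Fgf3 and Fgf15, whose genes lie 52.1 kb apart on chromosome 7 of GRCm38 (Fgf3, ENSMUSG00000031074, 144838083 to 144844436; Fgf15, ENSMUSG00000031073, 144896531 to 144900953). Fgf3, known from the hindbrain and the inner ear, had 35.6, 40.2 and 37.9 normalized counts in cKO replicates a to c against 421, 53.8 and 59.4 in control replicates a to c. The 3 cKO libraries were all below the 3 controls, but most of the distance came from control replicate a, at 10.5 times the median of the other 5 libraries. Mean values were 37.9 ± 2.27 and 178 ± 210.5 (SD, n = 3), and the log2 ratio of these means is -2.23. The log2 fold change of the limma fit, made on log values, was -1.62 (standard error 0.83, unadjusted p = 0.0741, adjusted p = 1.00). Without control replicate a it was -0.57 (unadjusted p = 0.0938), and the highest cKO library remained at 0.746 times the lowest control library. Leaving out another control library gave an unadjusted p of 0.0248 (replicate b) and 0.0468 (replicate c), and leaving out a cKO library gave 0.141 (replicate a), 0.142 (replicate b) and 0.129 (replicate c).

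Fgf15, the mouse counterpart of human FGF19 and a ligand made by neural progenitors, had 169.6, 321 and 148 normalized counts in cKO replicates a to c against 633, 279 and 119.9 in the controls. The groups overlapped, and the highest and the lowest library were both controls. The log2 fold change was -0.54 (95% interval -1.62 to 0.54). With control replicate a left out it turned to 0.094, and with control replicate c left out it went to -1.09 (unadjusted p = 0.0146), so that single libraries set both its size and its direction.

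Control replicate a was also the highest library for 4 of 11 isthmus and hindbrain markers, Fgf17, Pax2, Hoxa2 and Tph2, of which Fgf17 and Pax2 are shown because they share this pattern. The ligand Fgf17 had 61.9 normalized counts there and 18.0 to 27.1 elsewhere, and the transcription factor Pax2 had 148 there and 44.4 to 71.3 elsewhere. Fgf8 did not share this, with at most 14.1 normalized counts, in cKO replicate a. Together the 11 markers summed to 4324 to 5914 in the cKO and 5822 to 7105 in the control, highest in control replicate c, and Hoxa2, Hoxb2 and Hoxa3 had at most 5.31. Of the 7 tested, 6 had a negative log2 fold change and Pax5, Tph2 and Fev had an unadjusted p-value under 0.05. Ccnd1, a cell cycle gene on the same stretch of chromosome 7 as Fgf3 and Fgf15, had 1476 normalized counts in control replicate a and 1129.7 to 1636 in the others. Summed over 10 markers of cycling cells, control replicate a had 7677 and the other libraries 4279.5 to 6315. The part of isthmic or cycling cells in the Fgf3 and Fgf15 values was not tested.

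**Figure D2:**
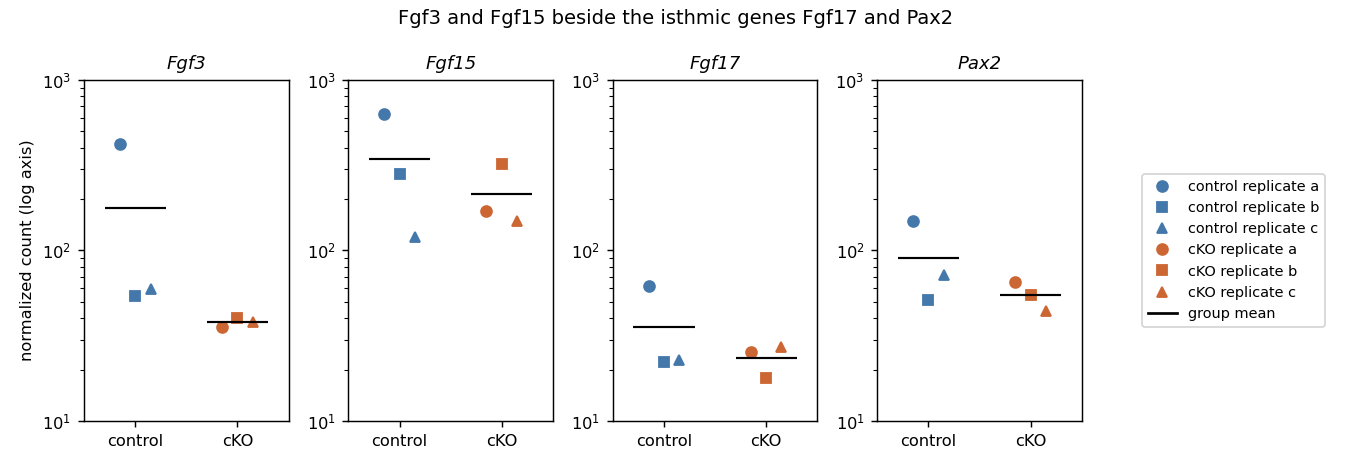
Normalized counts (log axis) of Fgf3 and Fgf15 and of the isthmic genes Fgf17 and Pax2, with 1 point per library and a bar at the group mean. Control replicate a (blue circle) is the highest library in all 4 panels, at 421, 633, 61.9 and 148. Fgf17 and Pax2 were chosen after their values had been seen, and the sum of the 11 isthmus and hindbrain markers is highest in control replicate c (7105).

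The remaining secreted ligands overlapped between the groups. Fgf18, a ligand with a known role in bone growth, had 96.5, 65.5 and 72.5 normalized counts in cKO replicates a to c against 71.7, 113 and 119.9 in the controls. Its log2 fold change was -0.33 (standard error 0.27, limma unadjusted p = 0.244), and -0.58 without control replicate a (unadjusted p = 0.0369). In the other fits that left out a library it was -0.50 to -0.20 (unadjusted p from 0.131 to 0.516). Fgf20 had 54.3, 82.4 and 61.7 against 77.0, 73.0 and 86.4, a log2 fold change of -0.27 with a 95% interval of -0.80 to 0.26. With 1 library left out, its value ran from -0.44 to -0.13. Fgf9, a ligand made by neurons, was the steadiest, with 403, 391 and 402 against 349, 403 and 417 and a log2 fold change of 0.043 (-0.20 to 0.28).

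Fgf1, Fgf2, Fgf5, Fgf7 and Fgf10 had group means of 11.5 to 54.4 normalized counts and wide intervals. For Fgf1 the fitted log2 fold change was -0.28 (-1.88 to 1.31), although its mean was 12.0 in the cKO and 11.5 in the control. Replicate b of the cKO was the lowest library for Fgf1 (2.11), Fgf5 (8.45) and Fgf10 (24.3), and replicate a of the cKO the highest (19.7, 45.9 and 64.6). Fgf7 and Fgf10, which mesenchyme is known to make, had log2 fold changes of 0.20 and 0.069. In cKO replicate c, which held most bone and mesenchyme RNA, Fgf7 was at its highest (68.2) and Fgf10 was not (40.0), and the part of that RNA in these values was not tested. Fgf2, a ligand without a classical secretion signal, was at -0.25 (-0.92 to 0.43) and Fgf5, a regulator of hair growth, at -0.32 (-1.54 to 0.89). The value of Fgf2 ran from -0.46 to -0.046 with 1 library left out.

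Receptor levels varied as much within the groups as between them. Fgfr3, a receptor of ventricular zone progenitors (ENSMUSG00000054252, chromosome 5, 33721674 to 33737068), had 1859.8, 2594 and 2349 normalized counts in cKO replicates a to c against 2263, 2269 and 2234 in the controls. Its cKO libraries lay on both sides of a tight control group, with a log2 fold change of -0.013 (95% interval -0.23 to 0.20). Fgfr1, the broadly expressed receptor of neural tissue (ENSMUSG00000031565, chromosome 8, 25513654 to 25575718), had 2300.1, 2781 and 2926 against 3164, 2661 and 2832. These overlapped too, at a log2 fold change of -0.12 (-0.32 to 0.074), which ran from -0.19 to -0.015 with 1 library left out. Fgfr2 was at -0.0077 (-0.22 to 0.21) and Fgfrl1 at -0.045 (-0.37 to 0.28). Fgfr4, with 4.80 to 18.4 normalized counts per library, was poorly measured at 0.37 (-0.82 to 1.55).

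Receptor partners and docking proteins had narrow intervals around 0. Frs3, the neuronal docking protein, had 909.7, 951 and 1041 normalized counts in cKO replicates a to c against 956, 1009 and 1183 in the controls and a log2 fold change of -0.11 (-0.31 to 0.095). Frs2, which links the receptor to Ras, was at 0.012 (-0.12 to 0.14). Flrt3, one of 3 leucine-rich repeat membrane proteins of a family that binds Fgf receptors, had 1589, 1791 and 1725 against 1732, 1504 and 1697, at 0.047 (-0.12 to 0.21). Flrt1 and Flrt2 were at 0.10 and -0.034. All of these groups overlapped.

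The 4 Fgf homologous factors share the Fgf fold but are neither secreted nor classical ligands of the receptors. Fgf13 (ENSMUSG00000031137, X chromosome, 59062145 to 59568071) had 4084, 3185 and 3393 normalized counts in cKO replicates a to c against 3399, 3848 and 3475 in the controls, with a log2 fold change of -0.0097 (95% interval -0.20 to 0.18). Fgf14, mutated in a spinocerebellar ataxia of humans, was at -0.0059 (-0.17 to 0.16) and Fgf12 at 0.047 (-0.18 to 0.28). Fgf11 had the highest value of the 4, 0.13 (-0.062 to 0.32), from 672 to 741 normalized counts in the cKO and 625 to 687 in the control. Of 6 tested sodium channel subunit genes, whose channels these factors bind, 5 had a positive and 1 a negative log2 fold change, with a median of 0.031 and none with an unadjusted p-value under 0.05.

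**Figure D3:**
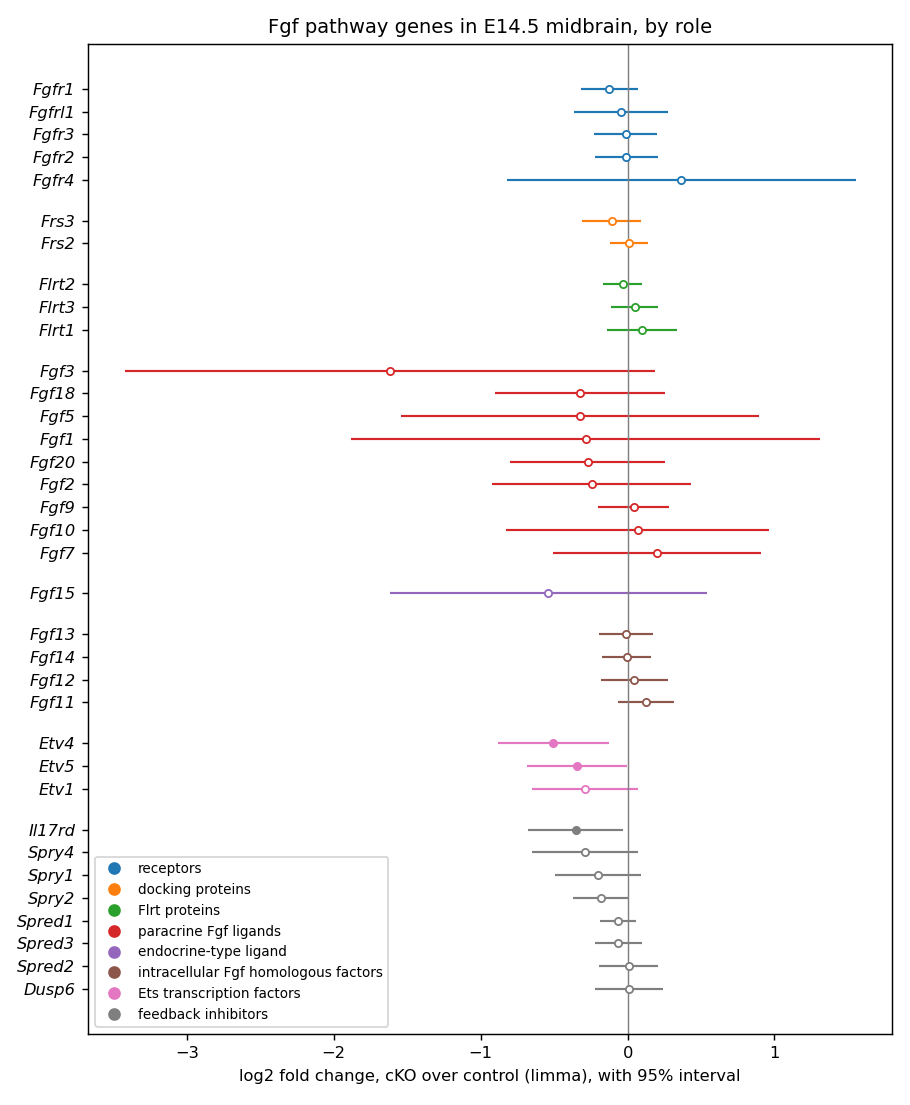
Log2 fold change of the 35 tested Fgf pathway genes (cKO over control, limma) with its 95% interval, coloured and grouped by role, with filled points for an unadjusted p-value under 0.05. The filled points are Etv4, Etv5 and Il17rd, all below 0, while receptors other than Fgfr4, docking proteins, Flrt proteins and homologous factors lie within 0.13 of 0.

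The smallest p-value of the members was that of Etv4 (ENSMUSG00000017724, chromosome 11, 101769742 to 101785371), an Ets factor also known as Pea3. Etv4 had 159, 118 and 134 normalized counts in cKO replicates a to c against 179.6, 218 and 190.1 in control replicates a to c. The groups did not overlap, and the closest libraries had a ratio of 0.887. Mean values were 137 ± 20.6 and 196 ± 19.9 (SD, n = 3), for a log2 fold change of -0.51 (standard error 0.17, limma unadjusted p = 0.0129, adjusted p = 1.00). With each library left out in turn it stayed at -0.63 to -0.41, and the unadjusted p was under 0.05 except without cKO replicate b (0.0567).

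Etv5 (ENSMUSG00000013089, chromosome 16, 22381309 to 22439719), the related factor Erm, had 468, 337 and 558 normalized counts in cKO replicates a to c against 628, 541 and 525 in the controls. One cKO library lay among the controls, and cKO replicate b was the lowest, as for Etv4. The log2 fold change was -0.34 (standard error 0.16, limma unadjusted p = 0.0474, adjusted p = 1.00) and -0.15 without cKO replicate b (unadjusted p = 0.258). The unadjusted p was over 0.05 in 5 of the 6 fits that left out a library. Etv1 (Er81), the third factor of the group, had 278, 287 and 329 against 466, 316 and 313. Here control replicate a alone stood above the rest, and the log2 fold change of -0.29 (unadjusted p = 0.108) was -0.086 without it.

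Il17rd (ENSMUSG00000040717, chromosome 14, 27038941 to 27107286), a membrane inhibitor of Fgf receptor signalling, had 497, 693 and 723 normalized counts in cKO replicates a to c against 934, 693 and 768 in the controls. The groups overlapped, with 1 low cKO library and 1 high control library. Its log2 fold change was -0.35 (standard error 0.15, limma unadjusted p = 0.0357, adjusted p = 1.00). The unadjusted p was 0.213 without cKO replicate a (log2 fold change -0.17), 0.158 when control replicate a was left out (-0.22) and 0.0549 when control replicate c was.

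Sprouty genes, which code for intracellular inhibitors of receptor tyrosine kinase signalling, had lower means in the cKO without an unadjusted p-value under 0.05. Spry2 had 543, 543 and 552 normalized counts in cKO replicates a to c against 641, 619.6 and 591 in the controls, with no overlap and the smallest spread of all members (log2 fold change -0.18, standard error 0.087, unadjusted p = 0.0637). Spry4 had 194, 179 and 137 against 196, 213 and 214, also without overlap but with a ratio of 0.987 between the closest libraries (-0.29, unadjusted p = 0.104). Without cKO replicate c it was -0.15 (unadjusted p = 0.379). Spry1 had 298, 397 and 346 against 406, 352 and 432, with overlap (-0.20, unadjusted p = 0.163), and was at -0.086 (unadjusted p = 0.545) without cKO replicate a. Among the Ets factors, Il17rd and the Sprouty genes, the lowest library was cKO replicate a for Etv1, Il17rd and Spry1, cKO replicate b for Etv4, Etv5 and Spry2, and cKO replicate c for Spry4. Control replicate a was the highest library for Etv1, Etv5, Il17rd and Spry2, and with it left out the log2 fold changes of these 4 were -0.086, -0.26, -0.22 and -0.15.

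Dusp6 (ENSMUSG00000019960, chromosome 10, 99263231 to 99267489), a phosphatase that dampens the signal inside the cell, had 585, 712 and 658 normalized counts in cKO replicates a to c against 712, 611 and 603 in the controls. The groups overlapped, at a log2 fold change of 0.0096 with a 95% interval of -0.22 to 0.24. This interval overlaps those of Etv4, Etv5 and Il17rd, and the difference between genes was not tested. Spred genes, coding for membrane-bound inhibitors of Raf activation, were abundant and steady. Spred1 had 3012, 2739 and 2877 against 2914, 3107 and 3022 (-0.066, interval -0.19 to 0.056), Spred2 was at 0.0067 (-0.20 to 0.21) and Spred3 at -0.063 (-0.22 to 0.095).

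**Figure D4:**
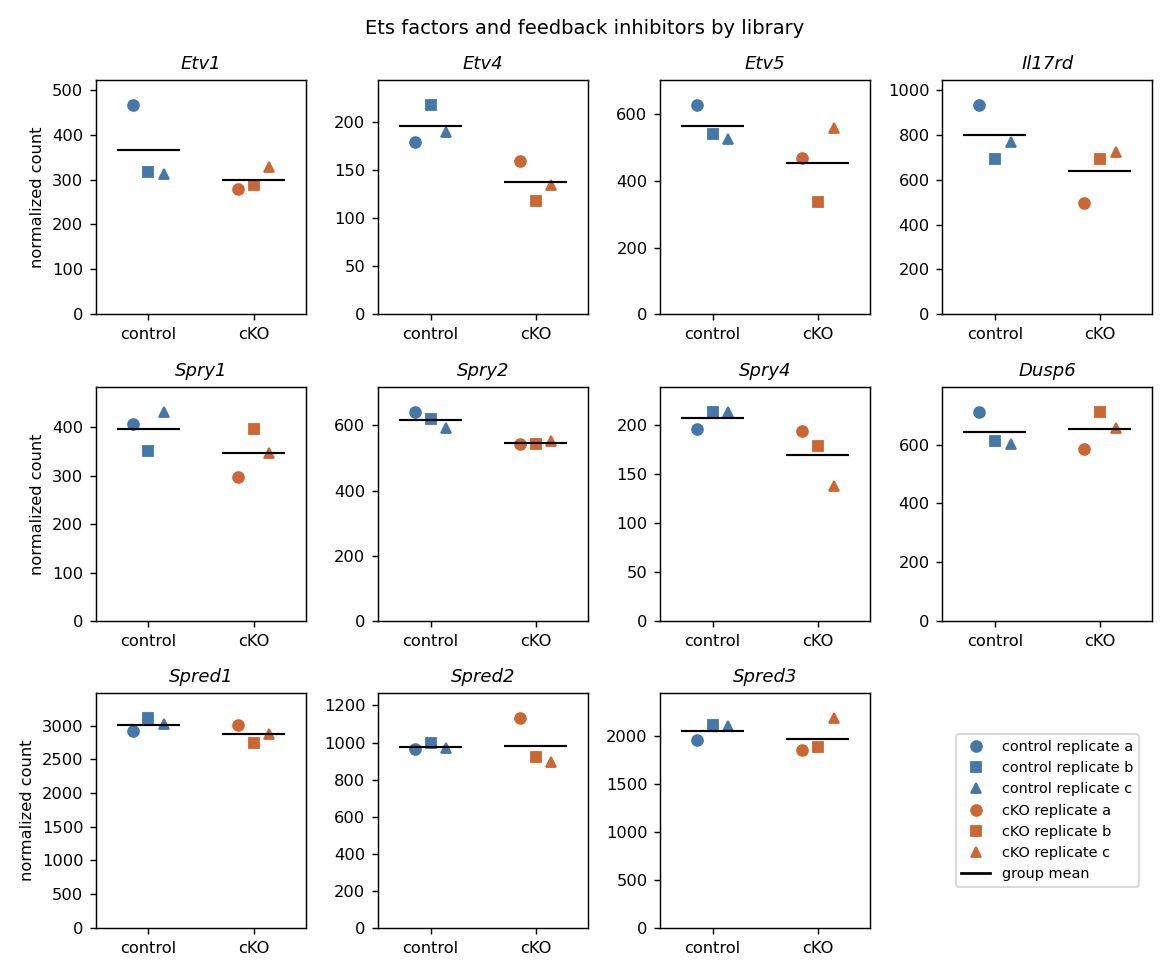
Normalized counts of the 3 Ets factors and 8 feedback inhibitors, with 1 point per library, a bar at the group mean and each axis starting at 0. The groups are apart for Etv4, Spry2 and, narrowly, Spry4, while those of Etv1, Etv5, Il17rd, Spry1, Dusp6 and the Spred genes overlap.

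Upstream sequences are shown for 4 of these target genes, to set Etv5, Il17rd and Spry2, which had lower means in the cKO, beside Dusp6, which had not. They are taken from RefSeq promoter windows on GRCm38.p6, cut to the bases before the gene as GENCODE places it (at most 250), and are written 5′ to 3′ on the strand of the gene. Capitals mark AGGAAG, a core that Ets factors of this group can bind, or CTTCCT, the same core on the other strand. Etv5 is read from chr16:22439720-22439820 (minus strand), Il17rd from chr14:27038751-27038940 (plus strand), Spry2 from chr14:105896820-105897069 (minus strand) and Dusp6 from chr10:99262981-99263230 (plus strand).
Etv5: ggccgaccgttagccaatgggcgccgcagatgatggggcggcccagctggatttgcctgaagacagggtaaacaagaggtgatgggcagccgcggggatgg
Il17rd: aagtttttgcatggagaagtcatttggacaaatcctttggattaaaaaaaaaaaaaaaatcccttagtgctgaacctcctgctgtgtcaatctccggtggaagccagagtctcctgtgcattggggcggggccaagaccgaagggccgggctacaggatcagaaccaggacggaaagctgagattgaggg
Spry2: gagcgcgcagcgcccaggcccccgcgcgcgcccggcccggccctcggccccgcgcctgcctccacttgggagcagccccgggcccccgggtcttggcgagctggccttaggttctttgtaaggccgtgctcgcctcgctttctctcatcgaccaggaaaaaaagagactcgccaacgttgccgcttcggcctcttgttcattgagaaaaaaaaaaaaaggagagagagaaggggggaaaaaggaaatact
Dusp6: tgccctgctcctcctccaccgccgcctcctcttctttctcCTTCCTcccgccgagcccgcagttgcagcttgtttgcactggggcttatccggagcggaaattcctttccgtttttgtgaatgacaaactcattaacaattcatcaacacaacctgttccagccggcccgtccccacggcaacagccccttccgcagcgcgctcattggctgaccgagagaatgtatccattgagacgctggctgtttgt
Of the 4 stretches, that of Dusp6 held the core, in 1 copy. Over all RefSeq windows of 250 bases, searched on both strands, 29.5% of 32851 held it. The 28 members with a window had 37 windows in all, of which 8 held the core. These were windows of Dusp6, Etv1, Fgf12, Fgf3, Fgfr2, Fgfr4, Flrt3 and Spred2. The means of Etv1 and Fgf3 were lower in the cKO, and those of the others were not. No window was available for Etv4. The 4 stretches shown are thus a choice, and a link between the core and the direction was not tested. A match describes letters in this window and not a bound site.

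Radial glia are progenitors in which Fgf targets are known to be active. Of 8 listed markers, 6 had recovered counts and were tested, with 4 negative and 2 positive log2 fold changes. Hes5, a Notch target (log2 fold change -0.33, unadjusted p = 0.0317), and the glutamate transporter Slc1a3 (-0.21, unadjusted p = 0.0134) had an unadjusted p-value under 0.05. Hes1 and Nes were at -0.25 and -0.041, and Sox2 and Pax6 were at 0.0074 and 0.24. The 6 recovered markers summed to 15319 to 17793 normalized counts in the cKO and 17062 to 18151 in the control, with the lowest sum in cKO replicate a. These sums overlapped, and the part of radial glia in the values of the Ets factors, Il17rd and the Sprouty genes was not tested. Of 6 listed neuron markers, 2 had recovered counts, with Rbfox3 at -0.015 and Snap25 at 0.056.

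Among 17 tested further feedback and target genes of the pathway, 10 had a negative and 7 a positive log2 fold change, and none had an unadjusted p-value under 0.05. The phosphatase genes Dusp5 (49.7, 36.98 and 33.6 normalized counts in cKO replicates a to c against 80.5, 45.1 and 46.4 in the controls) and Dusp14 (76.8, 52.8 and 66.0 against 74.3, 89.3 and 108) had the lowest log2 fold changes of these, -0.49 and -0.44, with unadjusted p-values of 0.166 and 0.1005. The largest in size was that of a further phosphatase gene, Dusp9, at 0.59 (standard error 0.60, unadjusted p = 0.345), with 11.2, 8.45 and 31.4 against 7.96, 15.4 and 6.48, of which cKO replicate c alone stood above the rest.

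Of 22 tested genes for heparan sulfate synthesis, proteoglycans and co-receptors, 7 had a negative and 15 a positive log2 fold change. Fgfbp3 alone had an unadjusted limma p-value under 0.05 (4.55% of the 22, against 2.8% of all genes). Its groups alone did not overlap (4.55%, against 7.65% of all genes), and these shares were not tested. Fgfbp3 codes for a secreted carrier that releases Fgf ligands from heparan sulfate. It had 3085, 3019.8 and 3238 normalized counts in cKO replicates a to c against 3313, 3618 and 4224 in the controls, without overlap. The log2 fold change was -0.24 (standard error 0.079, limma unadjusted p = 0.00970, adjusted p = 1.00), and the unadjusted p was at most 0.0444 in the 6 fits that left out a library.

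The precision differed widely between members. The coefficient of variation within the groups ran from 3.15% (Spry2) to 138% (Fgf3), with a median of 11.5%. Counting of reads alone gives 4.14% for Spry2, which is more than the spread seen. For Fgf3 and Fgf15 the spread between libraries was 14.8 and 12.0 times the counting error. For Fgf1 and Fgfr4 counting alone gives 29.0% and 27.3%.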

How the data were processed

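RNA of dissected E14.5 midbrains was measured in 3 cKO and 3 control libraries. The methods of the study state paired-end reads mapped on GRCm38.p4, and the submitters' processing notes name TopHat 1.0.14, Bowtie2 2.1.0, HTSeq 0.6.1p1 and DESeq 1.10.1. Whether strand was used in counting is not given in the sources used here. The signal columns that the authors deposited are mean counts per group, each count divided by the size factor of its library. Columns with the authors' own ratios and p-values were not used. The 3 lines that name no gene (31.8% of the mean counts) were left out.

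Size factors were found from the steps that 1 read makes in low means. For each mean (15 digits) a search over up to 30000 reads per group looked for the whole numbers behind it, and 26372 genes (98.2%) had exactly 1 solution in both groups. None of 1000 decoy values was solved, 4000 of 4000 simulated means were, and size factors recomputed from the recovered counts differed by at most 0.117%. More abundant genes have no value per library here and were not tested. Counting errors cover read sampling only.

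Of 17177 genes with a mean of at least 10, the 16697 with recovered counts entered limma 3.58.1 (R 4.3.3), and shares of all genes refer to these. The fit used voom weights, genotype as the only term and Benjamini-Hochberg adjustment over all of them. Permutation tests were exact and two-sided. In simulated counts, 79.5%, 95.5% and 97.5% of genes changed by 1.5, 2 and 3-fold passed an adjusted p-value of 0.05. In the measured libraries the coefficient of variation within the groups ran from 3.15% to 138% over the members. Whether the simulated shares hold at such a spread was not tested. The litter of each library is not recorded, so p-values measure the spread between these pools. The members and all lists were chosen with earlier results of these data known. By rule, values in every library are given for members with an unadjusted p-value under 0.05, members whose groups do not overlap and the most abundant member of each role. Fgf18, Fgf20, Fgfr1, Etv1, Spry1, Dusp6, Dusp5, Dusp9, Dusp14 and the further genes named with values were added after their values had been seen. The remaining cell type lists had median log2 fold changes of 0.059 (vessels and meninges), 0.30 (blood), 0.066 (choroid plexus), 1.20 (bone and mesenchyme) and -0.076 (cycling cells). An unadjusted p-value under 0.05 was found for 2 of 5 blood genes and 1 of 12 bone and mesenchyme genes, all higher in the cKO, and 3 of these 12 did not overlap between groups. No other gene of these lists had such a p-value. A list of cascade genes is not reported here. Positions and exon lengths follow GENCODE M21 (GRCm38). Python 3.11.15 was used with numpy 2.4.6, pandas 2.3.3, scipy 1.17.1, numba 0.67.0 and matplotlib 3.10.9. Alternatives were other minimum means, limma-trend with pseudocounts of 0.5 and 10, scaling by recovered totals, centring on the median, ratios of the deposited means and leaving out each library.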

Additional observations from a re-analysis of the deposited data

How the results depend on the processing

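The number of members with an unadjusted p-value under 0.05 was 2 or 3 under every planned setting that kept all libraries, and 1 to 3 when a library was left out, with 1 without cKO replicate a and 1 without cKO replicate b. Etv5 was the member lost with a minimum mean of 50 (unadjusted p = 0.0501) and in limma-trend (up to 0.0556), where Fgf3 was gained (0.0255 and 0.0282). Over all genes, 970 of 26372 had an unadjusted p-value under 0.05 without a minimum mean, against 467. Leaving out a library gave 0 to 4 genes with an adjusted p-value under 0.05, the 4 being the Y chromosome genes Kdm5d, Uty and Ddx3y, which are lowest in control replicate a, and Gm11702, all without that library and named after their values were seen. The cause of these changes was not tested.

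Signs changed for values near 0 and for some larger ones, such as those of Fgf15 (-0.54) and Fgfr4 (0.37). Limma-trend with pseudocounts of 0.5 and 10 gave 0.0020 and 0.0020 for Fgfr2 and -0.00074 and -0.00066 for Spred2, and the ratio of the deposited means gave 0.054 for Fgf1, 0.0080 for Fgfr2 and 0.0078 for Fgfr3. Leaving out 1 library changed the sign of the log2 fold change of 18 members, over these ranges: Fgf1 (-0.89 to 0.60), Fgf5 (-1.04 to 0.19), Fgf7 (-0.0049 to 0.46), Fgf9 (-0.040 to 0.090), Fgf10 (-0.30 to 0.42), Fgf12 (-0.084 to 0.16), Fgf13 (-0.12 to 0.065), Fgf14 (-0.043 to 0.042), Fgf15 (-1.09 to 0.094), Fgfr2 (-0.10 to 0.092), Fgfr3 (-0.12 to 0.13), Fgfr4 (-0.20 to 0.69), Fgfrl1 (-0.15 to 0.017), Spred2 (-0.11 to 0.069), Dusp6 (-0.057 to 0.092), Flrt2 (-0.058 to 0.0042), Flrt3 (-0.016 to 0.10), Frs2 (-0.024 to 0.048). No sign changed for Etv4, Etv5, Etv1, Il17rd, the Sprouty genes or Fgf3. The same held for Fgf2, Fgf11, Fgf18, Fgf20, Fgfr1, Spred1, Spred3, Flrt1 and Frs3. No paired analysis was possible because the recovered libraries cannot be tied to the numbers 1 to 3 that the column headings of the deposited means give the libraries of both groups, so a pairing by these numbers was not tested.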
